A study of Rattus norvegicus with 60 samples.

Results

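The miR-17 seed family of the rat is a group of microRNAs (miRs) that share the bases by which a miR recognizes its targets. Its members were chosen by name alone, as the guide strands rno-miR-17, rno-miR-20a, rno-miR-20b, rno-miR-93 and rno-miR-106b (names ending in an asterisk left out), which gave 5 members of the 350 rat miRs on the array. Of these, 4 were among the 159 miRs that were tested, a set that takes in every miR with a detection flag on the 6 arrays of some group. rno-miR-17-5p was detected on at most 5 of 6 arrays in any group and is given by its values only.

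The retinas came from 60 male Long Evan's hooded rats with no genetic change, each on an array of its own, in 10 groups of 6. In the 30 rats of the ischemia-reperfusion (IR) groups, a needle in the front chamber of an eye held the intraocular pressure at 110 mmHg for 60 min, and the whole retina was taken after reperfusion for 0 h, 2 h, 24 h or 48 h, or for 7d. The 30 sham control rats went through the same anesthesia and needle placement at the same 5 time points without the rise in pressure. The comparison asks which members changed with IR injury at each time point, and the pressure model stops blood flow to the retina as a whole rather than in a single vessel.

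A miR guide strand loads into an Argonaute protein and pairs, through its seed near the 5′ end, with matching sites in messenger RNAs, which are then translated less and degraded sooner. The miR-17 family is made from 3 gene clusters and is known for promoting cell cycle entry and survival, with targets such as the transcription factor E2f1 and the cell cycle inhibitor Cdkn1a. In the developing retina the family is abundant in dividing progenitors, and its level falls as cells leave the cell cycle.

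The mature sequences are shown because the common seed defines the family and because the members differ by few bases outside it. They are from RefSeq (GRCr8), 5′ to 3′, with the seed (bases 2 to 8) in capitals. All 5 members matched an entry, and these 5 were the only ones of 693 rat mature miRs with the seed AAAGUGC at those bases.
rno-miR-17-5p: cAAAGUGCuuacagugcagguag
rno-miR-20a: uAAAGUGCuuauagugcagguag
rno-miR-20b-5p: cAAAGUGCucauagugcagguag
rno-miR-93: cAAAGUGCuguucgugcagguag
rno-miR-106b: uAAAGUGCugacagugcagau

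Counting from 1 at the 5′ end, the exchanges from rno-miR-17-5p to rno-miR-20a were C1U and C12U, with 21 of 23 bases identical. From rno-miR-20a to rno-miR-20b-5p the exchanges were U1C and U10C, and from rno-miR-20a to rno-miR-106b they were U10G, U12C and G20A over 21 bases. The least alike pair was rno-miR-93 and rno-miR-106b, with 16 of 21 bases identical. The probe sequences are not used here, so whether a probe for 1 member also bound another was not tested.

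The genes of the family lie in 3 clusters in GRCr8. Mir17 and Mir20a are on chromosome 15, within a cluster of 6 miR genes spanning 785 bases (chr15:98587848-98588632). Mir20b and Mir106a are in a cluster of 5 miR genes over 871 bases on the minus strand of chromosome X (chrX:137342777-137343647), and the Mir106a gene gives the same mature sequence as Mir17, so that rno-miR-17-5p has 2 loci. Mir93 and Mir106b lie with Mir25 in 494 bases of chromosome 12 (chr12:22156641-22157134), inside the bounds of the protein-coding gene Mcm7, which encodes a subunit of the replicative helicase.

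The IR arrays were dimmer than the sham control arrays at 24 h, 48 h and 7d. At 0 h they were dimmer by 1.06 on average (exact two-sided permutation test, adjusted p = 0.0505) and at 2 h the difference was 0.0354 (adjusted p = 0.913 by the same exact test). Brightness enters every scaled value. Array brightness (log2 of the scaling factor) averaged 8.27 ± 0.57 with IR and 10.4 ± 0.35 with sham at 24 h (SD, n = 6, exact two-sided permutation test, adjusted p = 0.0072 over 10 tests). At 7d brightness averaged 8.16 ± 0.47 with IR and 10.7 ± 0.24 with sham (SD, n = 6, exact test as before, adjusted p = 0.0072). Between 59 and 232 miRs were detected per array, with fewer on the IR arrays at 24 h and at 7d. Of the 9 slides, 2 held both treatments, and on no slide did IR and sham arrays of the same time point lie together, whereas each of the 3 scan days held both treatments at every time point.

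rno-miR-20a, encoded on chromosome 15, was the member with the clearest change. It rose 2.31-fold at 24 h, 2.53-fold at 48 h and 1.86-fold at 7d over sham control, after a rise of 1.33-fold at 2 h. These directions held under each scaling between arrays that was tried (at 2 h the smallest value was 0.07, with quantile normalization), but without any scaling the 24 h and 7d values were -0.94 and -1.68 on the log2 scale. It was detected on all 60 arrays. Since whole retina was measured, a change in the number of cells of a type and a change in RNA per cell cannot be told apart.

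All levels below are log2 of the scaled total signal of a miR in signal units. In the sham control retinas rno-miR-20a lay at 6.64, 6.69 and 6.85 (lowest, median and highest of 6) at 0 h and at 6.55, 6.64 and 6.80 at 2 h. With IR it lay at 6.86, 6.98 and 7.13 at 0 h and at 6.80, 7.12 and 7.22 at 2 h. At 0 h every IR array lay above every sham array, and at 2 h 5 of 6 did. The difference was 0.29 ± 0.11 at 0 h (SE, limma, adjusted p = 0.0757) and 0.41 ± 0.11 at 2 h (SE, limma, adjusted p = 0.0077). The 0 h value turned to -0.08 with quantile normalization, -0.04 with the percentile taken over all miRs and -0.02 in the authors' table, and at 2 h the adjusted p no longer passed in these 3 (0.07, 0.37 and 0.39, limma, adjusted p = 0.746, 0.0911 and 0.0657).

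At 24 h the sham control arrays gave 6.49, 6.81 and 7.05 and the IR arrays 7.83, 7.98 and 8.20. At 48 h the values were 6.36, 6.69 and 6.97 for sham and 7.28, 8.11 and 8.37 for IR. At both time points all 6 IR arrays lay above all 6 sham arrays. The IR arrays at 48 h other than the lowest lay at or above 7.93. The difference was 1.21 ± 0.11 at 24 h (SE, limma, adjusted p = 2.31e-13) and 1.34 ± 0.11 at 48 h (SE, limma, adjusted p = 4.81e-15).

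At 7d the sham values were 6.37, 6.53 and 6.82 and the IR values 7.39, 7.47 and 7.50. The 6 IR arrays were closer together than in any other IR group (SD 0.0395) and none overlapped the sham arrays. The difference of 0.90 ± 0.11 (SE, limma, adjusted p = 4.55e-09) fell short of the 2-fold threshold. Within the 3 scan days the difference ranged from 1.13 to 1.34 at 24 h, from 0.91 to 1.56 at 48 h and from 0.85 to 0.97 at 7d.

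**Figure D1:**
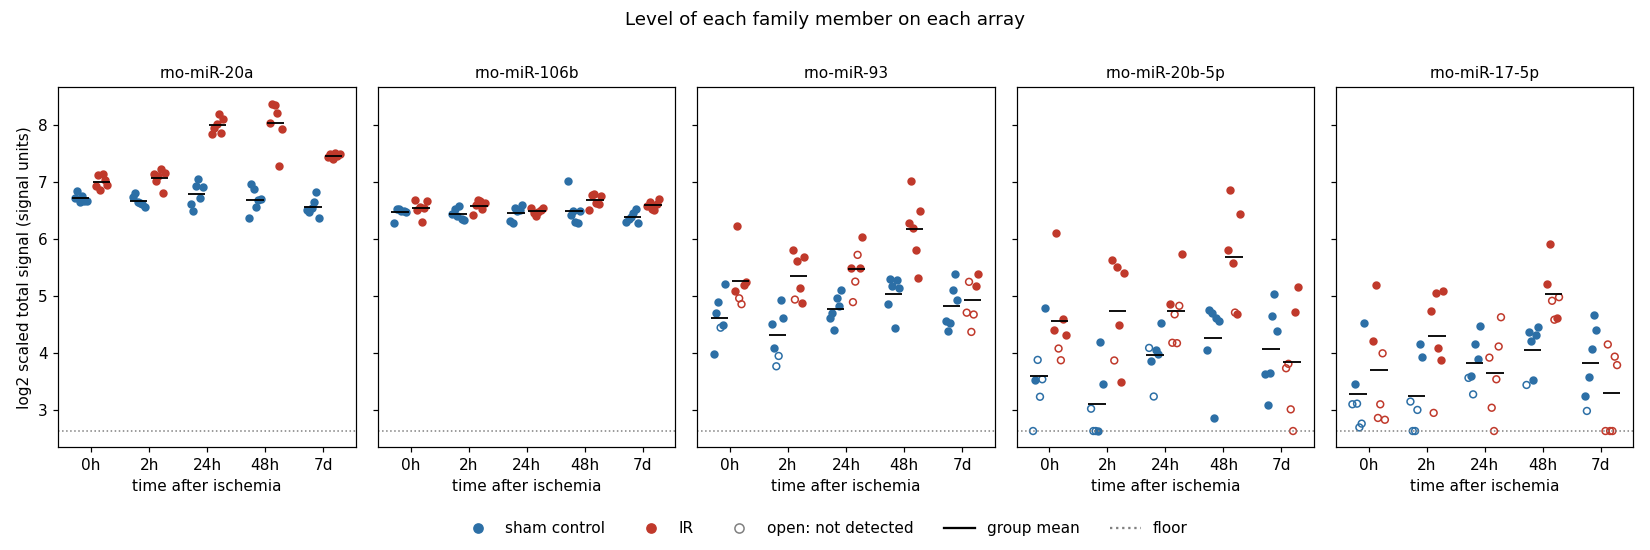
Log2 scaled total signal (y axis, signal units) of the 5 family members on each of 60 arrays, by time after ischemia (x axis), with 6 sham control (blue) and 6 IR (red) arrays per time point. Open points were not detected, black bars are group means and the dotted line is the floor at 2.63. For rno-miR-20a the IR arrays lie above all sham arrays at 0 h, 24 h, 48 h and 7d in this scaling (the 0 h, 24 h and 7d differences turn negative without scaling, and that at 0 h also with quantile normalization, with the percentile over all miRs and in the authors' table), whereas open points are frequent for rno-miR-93, rno-miR-20b-5p and rno-miR-17-5p.

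The effect of IR on rno-miR-20a differed between time points (limma F test, adjusted p = 1.41e-07, where 39% of the 159 tested miRs passed). It was larger at 24 h than at 2 h by 0.80 ± 0.15 and larger at 48 h than at 2 h by 0.93 ± 0.15 (SE, limma, adjusted p = 0.000149 and 9.71e-06, with 23.9% and 22% of tested miRs passing). It was also larger at 24 h, 48 h and 7d than at 0 h, by 0.92, 1.05 and 0.61 (SE 0.15 each, limma, adjusted p = 1.74e-05, 8.06e-07 and 0.00449, with 6.29%, 12.6% and 25.8% passing). Without scaling all of these but the change from 0 h to 48 h turned negative. With normexp the F test did not pass (adjusted p = 0.189), nor did any of these changes (0.39 to 0.88, limma, adjusted p = 0.0898 to 0.995). The drop from 48 h to 7d of 0.44 ± 0.15 did not pass (SE, limma, adjusted p = 0.111, with 3.14% passing).

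rno-miR-106b, encoded in Mcm7 on chromosome 12, was nearly flat in this scaling. It was also detected on all 60 arrays. In the sham control retinas its lowest, median and highest values were 6.27, 6.48 and 6.53 at 0 h, 6.33, 6.42 and 6.57 at 2 h, and 6.28, 6.50 and 6.59 at 24 h. The IR arrays gave 6.30, 6.55 and 6.68 at 0 h, 6.42, 6.61 and 6.68 at 2 h, and 6.40, 6.49 and 6.54 at 24 h. The groups overlapped at each of these times.

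At 48 h rno-miR-106b lay at 6.28, 6.45 and 7.02 in sham and at 6.50, 6.69 and 6.79 in IR. At 7d it lay at 6.27, 6.36 and 6.52 in sham and at 6.50, 6.59 and 6.69 in IR. The groups overlapped here too, and 1 sham array at 48 h lay above every IR array. The differences were 0.08, 0.15 and 0.03 at 0 h, 2 h and 24 h (SE 0.08 each, limma, adjusted p = 0.599, 0.399 and 0.714).

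At 48 h the difference was 0.18 ± 0.08 (SE, limma, adjusted p = 0.0475) and at 7d 0.21 ± 0.08 (SE, limma, adjusted p = 0.016). At these times 19.5% and 20.1% of all tested miRs passed the adjusted p alone as higher with IR. With the authors' value table the values were 0.05 and -0.04, and leaving out 1 array at 48 h took the adjusted p past 0.05 in 9 of 12 cases. At 24 h the sign of rno-miR-106b was negative under quantile normalization (-0.23), with the percentile taken over all miRs (-0.28) and in the authors' table (-0.32), and it passed as lower in all 3 (limma, adjusted p = 0.0115, 0.00229 and 0.0005). At 0 h it passed as lower with the percentile over all miRs and in the authors' table (-0.24 and -0.23, limma, adjusted p = 0.0134 and 0.0184).

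**Figure D2:**
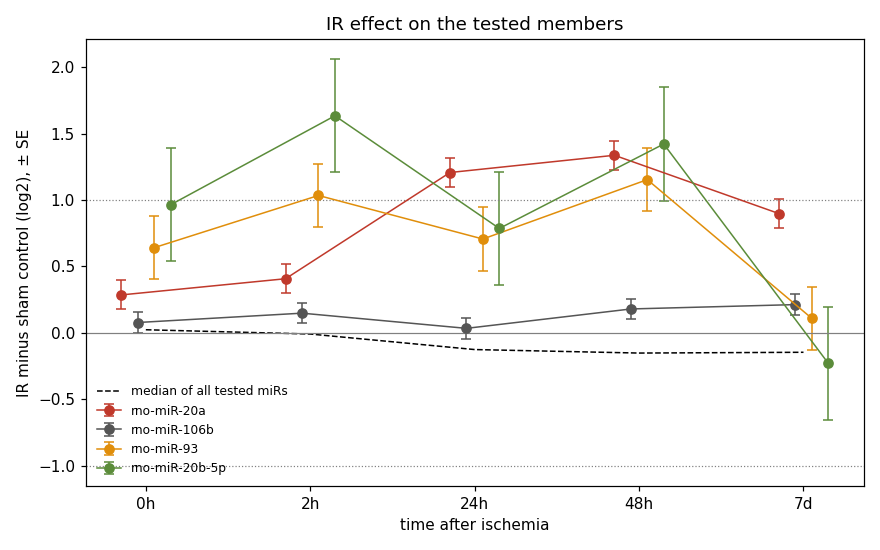
Difference IR minus sham control on the log2 scale (y axis, points with SE from limma, 6 against 6 arrays) for the 4 tested members by time after ischemia (x axis). Dotted lines mark 2-fold and the dashed line is the median of all 159 tested miRs; rno-miR-20a climbs from 0.29 at 0 h to 1.34 at 48 h and rno-miR-106b stays between 0.03 and 0.21 in this scaling, with other signs for both under other scalings.

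Both rno-miR-20a and rno-miR-106b were measured on every array, so their signals can be set against each other within an array, where no scaling enters. This ratio was chosen after the values were seen and is given as a description. The log2 of rno-miR-20a over rno-miR-106b was 0.21, 0.31 and 0.56 (lowest, median and highest) in sham and 1.30, 1.53 and 1.72 in IR at 24 h. At 48 h it was -0.66, 0.32 and 0.56 in sham and 0.66, 1.54 and 1.60 in IR.

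At 7d the ratio was 0.10, 0.18 and 0.30 in sham and 0.79, 0.85 and 1.00 in IR. At 24 h, 48 h and 7d every IR array lay above every sham array, with mean differences of 1.17, 1.16 and 0.69. At 0 h and 2 h the groups overlapped, with mean differences of 0.21 and 0.26. The ratio shows that the signals of both miRs changed unequally, and does not show which of them changed.

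**Figure D3:**
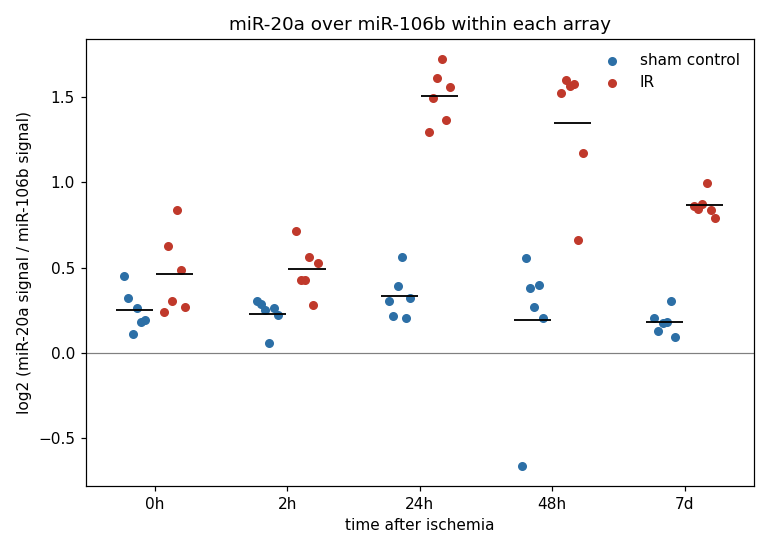
Log2 ratio of the total signals of rno-miR-20a and rno-miR-106b within each array (y axis) by time after ischemia (x axis), with 6 sham control (blue) and 6 IR (red) arrays per time point and black bars at the means. The IR arrays lie between 1.30 and 1.72 at 24 h and between 0.79 and 1.00 at 7d, above all sham arrays of the same time.

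rno-miR-93, the neighbor of rno-miR-106b in Mcm7, was higher with IR at 2 h, 24 h and 48 h but was less often detected. In sham control it lay at 3.77, 4.30 and 4.93 at 2 h (4 of 6 arrays detected), and in IR at 4.87, 5.38 and 5.81 (5 of 6 detected). At 24 h the values were 4.40, 4.76 and 5.11 in sham (6 of 6 detected) and 4.89, 5.48 and 6.02 in IR (3 of 6 detected). The scaled IR values were thus higher while fewer IR arrays detected the miR, and the highest detection limit among the 24 h IR arrays was 5.36.

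At 48 h rno-miR-93 lay at 4.44, 5.15 and 5.30 in sham and at 5.31, 6.24 and 7.01 in IR, detected on all 12 arrays. This was the time point where rno-miR-93 was measured on every array of both groups, and all IR arrays lay above all sham arrays. The differences were 1.03 ± 0.24 at 2 h (SE, limma, adjusted p = 0.00259), 0.71 ± 0.24 at 24 h (SE, limma, adjusted p = 0.0107) and 1.15 ± 0.24 at 48 h (SE, limma, adjusted p = 6.69e-05), or 2.05-fold, 1.63-fold and 2.22-fold. Without scaling the 24 h and 48 h values were -1.45 and -0.04, and with quantile normalization, the percentile taken over all miRs or the authors' table the adjusted p at 24 h no longer passed (limma, adjusted p = 0.0934, 0.0848 and 0.119). By the exact two-sided permutation test the adjusted p was 0.0765 at 2 h, 0.0136 at 24 h and 0.0143 at 48 h. The 2 h difference fell to 0.25 with normexp and did not pass. Without scaling it was 1.07 and did not pass (limma, adjusted p = 0.149).

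At 0 h rno-miR-93 lay at 3.98, 4.59 and 5.21 in sham and at 4.86, 5.14 and 6.23 in IR, a difference of 0.64 ± 0.24 (SE, limma, adjusted p = 0.0691, and 0.0434 with scan day as a block). At 7d it lay at 4.39, 4.75 and 5.38 in sham and at 4.37, 4.94 and 5.39 in IR, with 6 and 2 of 6 arrays detected. The 7d groups covered the same range. The difference at 7d was 0.11 ± 0.24 (SE, limma, adjusted p = 0.705), and it was smaller than at 2 h by 0.92 ± 0.34 (SE, limma, adjusted p = 0.0255, where 40.9% of tested miRs passed). That change turned to 1.21 with normexp (limma, adjusted p = 0.018) and did not pass with slide as a block or brightness as a covariate.

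rno-miR-20b-5p, from the chromosome X cluster, was dimmer still and more variable. At 2 h the sham values were 2.63 (the floor), 2.83 and 4.20 with 3 of 6 arrays detected, and the IR values 3.49, 4.95 and 5.62 with 5 of 6 detected. At 48 h the sham values were 2.87, 4.59 and 4.75 (6 of 6 detected) and the IR values 4.68, 5.69 and 6.86 (5 of 6 detected). At both times 4 of 6 IR arrays lay above the highest sham array.

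The differences for rno-miR-20b-5p were 1.63 ± 0.43 at 2 h (SE, limma, adjusted p = 0.00603) and 1.42 ± 0.43 at 48 h (SE, limma, adjusted p = 0.00455), or 3.104-fold and 2.68-fold, and by the exact two-sided permutation test of 6 against 6 arrays the adjusted p was 0.115 and 0.0351. Without scaling the 2 h and 48 h differences were 1.71 and 0.23, and the 48 h value did not pass (limma, adjusted p = 0.0356 and 0.673). With floors of 1 and 0.01 signal units the 2 h difference was 2.20 and 2.39, so its size rests on the floor, where some sham arrays lay. At 0 h the sham values were 2.63, 3.53 and 4.79 and the IR values 3.87, 4.36 and 6.10, with a difference of 0.96 ± 0.43 (SE, limma, adjusted p = 0.135). That highest IR array lay far from the other 5, which reached 4.60.

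At 24 h rno-miR-20b-5p lay at 3.24, 4.01 and 4.52 in sham and at 4.17, 4.75 and 5.74 in IR, with 4 and 2 of 6 arrays detected. At 7d it lay at 3.09, 4.02 and 5.03 in sham and at 2.63, 3.77 and 5.16 in IR, with 6 and 2 of 6 detected. Neither difference passed (0.79 ± 0.43 and -0.23 ± 0.43, SE, limma, adjusted p = 0.0981 and 0.665). The effect at 7d was lower than at 2 h by 1.86 on the log2 scale (difference -1.86 ± 0.60, SE, limma, adjusted p = 0.0127, where 40.9% of tested miRs passed). That difference turned to 1.27 with normexp background correction. It did not pass with slide as a block or brightness as a covariate.

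rno-miR-17-5p, the member that gives the family its name, was near the detection limit. It was detected on 2, 2, 4, 5 and 5 of 6 sham arrays and on 2, 5, 0, 3 and 0 of 6 IR arrays at the 5 time points in order. Its sham levels spanned 2.63 to 4.66 over all 5 time points and its IR levels 2.63 to 5.92. At 24 h and 7d it was not well above background on any IR array, and since the mean detection limit of those arrays (4.80 and 5.00) lay above the sham mean (3.83 at both times), no fold can be given.

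When all 350 miRs were fitted, the differences for rno-miR-17-5p at the other times were 0.42 at 0 h, 1.05 at 2 h and 0.98 at 48 h (SE 0.39 each, limma, adjusted p = 0.592, 0.104 and 0.0376). At 48 h all 6 IR arrays (4.58 to 5.92) lay above all sham arrays (3.44 to 4.46), with 3 of the 6 IR arrays detected.

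Counted over the family, 2 of the 4 tested members were higher with IR by both 2-fold and an adjusted p of 0.05 at 2 h (5.03% of all tested miRs were), 1 at 24 h (11.9%) and 3 at 48 h (10.1%). None was at 0 h (6.29%) or 7d (7.55%), where 0 and 2 passed limma's adjusted p alone and 3 and 2 had an unadjusted p under 0.05. By adjusted p alone, the members higher with IR numbered 0 at 0 h (10.7% of all tested miRs), 3 at 2 h (7.55%), 2 at 24 h (24.5%), 4 at 48 h (19.5%) and 2 at 7d (20.1%). Tested members whose IR arrays lay wholly above the sham arrays numbered 1 at 0 h (4.4%), 0 at 2 h (2.52%), 1 at 24 h (17%), 2 at 48 h (6.29%) and 1 at 7d (15.1%). No tested member passed as lower at any time point in this scaling.

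The median of the 4 tested members was 0.46, 0.72, 0.75, 1.25 and 0.16 from the first time point to the last, against 0.02, -0.01, -0.13, -0.15 and -0.15 over all tested miRs. The counts changed with the scaling. At 24 h no member was called with quantile normalization, the percentile taken over all miRs or the authors' table, where rno-miR-20a lay at 0.94, 0.89 and 0.85, just short of 2-fold. Without scaling, 3 members were called at 24 h and 4 at 7d as lower with IR, as were 138 and 151 of all 159 tested miRs.

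**Figure D4:**
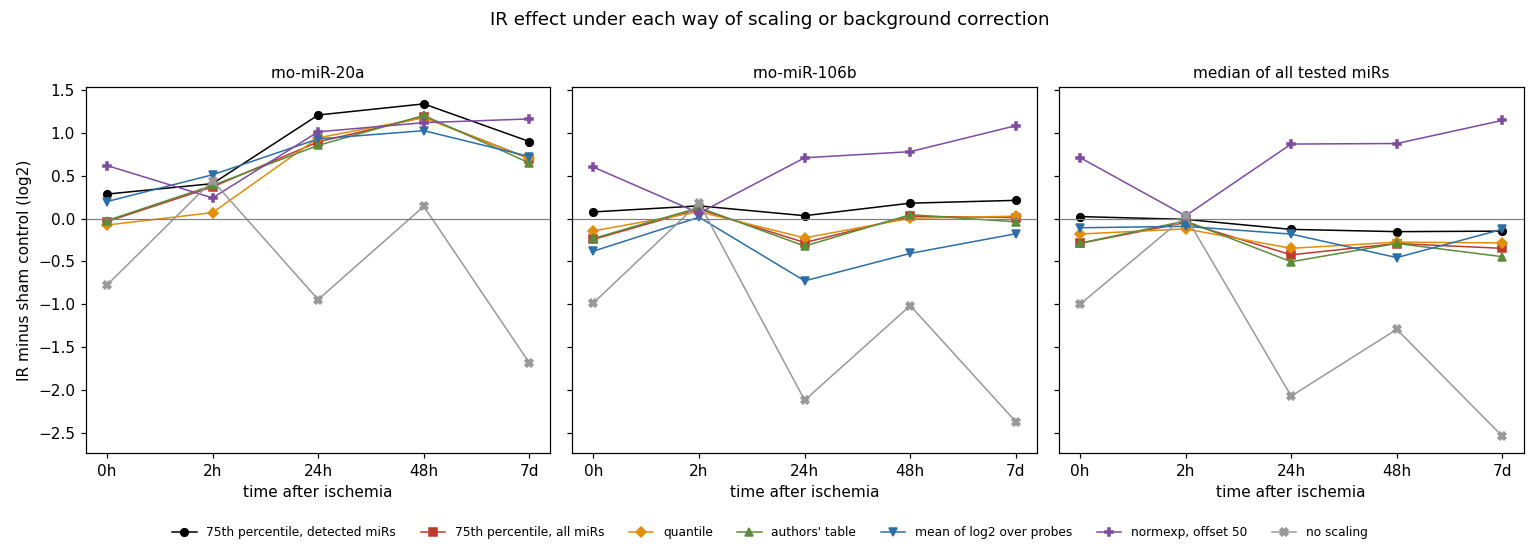
Difference IR minus sham control on the log2 scale (y axis) by time after ischemia (x axis) for rno-miR-20a, for rno-miR-106b and for the median of all tested miRs, each line a way of scaling or background correction. Without scaling the median falls to -2.07 at 24 h and -2.54 at 7d and with normexp it rises to 1.14 at 7d, and rno-miR-20a lies above that median at 24 h, 48 h and 7d in each of the 7 settings drawn.

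Relative to the median of all tested miRs, rno-miR-20a was higher by 1.33 at 24 h, 1.49 at 48 h and 1.04 at 7d. Without scaling these values were 1.13, 1.43 and 0.86. With normexp background correction and an offset of 50 they were 0.14, 0.24 and 0.02. A scaling factor moves all miRs of an array alike, so these differences say little about the scaling, and normexp changed the background and the offset together.

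In the sham control retinas no tested member passed the test of a difference over the 5 sham groups (limma F test, adjusted p = 0.801 for rno-miR-106b, 0.61 for rno-miR-20a, 0.231 for rno-miR-20b-5p and 0.194 for rno-miR-93, with 5.66% of tested miRs passing, and none of the 4 at an unadjusted p of 0.05), though without scaling rno-miR-20b-5p did (adjusted p = 0.0203). The sham group means spanned 6.56 to 6.78 for rno-miR-20a, 6.38 to 6.50 for rno-miR-106b, 4.31 to 5.03 for rno-miR-93 and 3.098 to 4.26 for rno-miR-20b-5p. In the order of rno-miR-20a levels, the 5 sham groups were lowest and the 5 IR groups highest, with IR 24 h (7.99) and IR 48 h (8.03) within each other's spread.

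The dim members moved together from array to array. Over the 60 arrays, rno-miR-20b-5p and rno-miR-93 had a Pearson r of 0.945, and 0.91 once group means were taken away, although they are encoded on different chromosomes. rno-miR-93 and rno-miR-106b, from 1 cluster, had r of 0.45. The mature rno-miR-17-5p can come from the chromosome 15 cluster with Mir20a or the chromosome X cluster with Mir20b. Its r was 0.32 with rno-miR-20a, 0.83 with rno-miR-20b-5p and 0.80 with rno-miR-93, which is in neither of these clusters. These points share the array, its scale and, for the dim members, signals near the floor, so the values are a description.

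Among the tested miRs outside the family, those most like rno-miR-20a over the 60 arrays were rno-miR-21 (r = 0.91, and 0.93 over the 10 group means), rno-miR-146b (0.87 and 0.91) and rno-miR-27a (0.83 and 0.92). rno-miR-21 is known as an injury-induced miR and rno-miR-146b as a miR induced by inflammatory signaling. For rno-miR-93 they were rno-miR-672, rno-miR-99b* and rno-miR-466b (r from 0.79 to 0.80), and for rno-miR-20b-5p rno-miR-99b*, rno-miR-382 and rno-miR-672 (r from 0.71 to 0.74). For rno-miR-17-5p they were rno-miR-382, rno-miR-99b* and rno-miR-333 (r from 0.68 to 0.71). The nearest to rno-miR-106b were rno-miR-22, rno-miR-206 and rno-miR-29a, with lower r (0.54 to 0.64).

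The miRs that are processed from the same transcripts as the family were taken as a list by position. Of the 7 cluster partners listed (miR-18a, miR-18b, miR-19a, miR-19b, miR-25, miR-92a and miR-363), 6 are on the array and 4 were tested. rno-miR-92a, made from the chromosome 15 and X clusters, passed the adjusted p as higher with IR at 24 h, 48 h and 7d, by 0.60 ± 0.08, 0.32 ± 0.08 and 0.55 ± 0.08 (SE, limma, adjusted p = 2.1e-08, 0.000674 and 1.04e-07), and it was the 1 partner that did, where 24.5%, 19.5% and 20.1% of all tested miRs passed as higher. Its arrays lay between 7.67 and 7.92 in sham and between 8.10 and 8.51 in IR at 24 h, with no overlap. Without scaling its median total signal at 24 h was 128 in IR and 417 in sham.

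rno-miR-363, which lies with Mir20b in the chromosome X cluster, was tested only because all 6 sham arrays at 7d detected it. It was detected on none of the IR arrays at 24 h and 7d, against 4 and 6 of 6 sham arrays, and since the mean detection limit of those IR arrays (4.67 and 4.89) lay above the sham mean (3.77 and 3.91), no fold can be given. Its differences at 0 h, 2 h and 48 h did not pass (-0.63, -0.34 and -0.22, limma, adjusted p = 0.132, 0.665 and 0.513). rno-miR-19b, made like rno-miR-92a from both clusters, and rno-miR-25, the third miR of Mcm7, passed at no time point (differences from -0.14 to 0.09 and from -0.22 to -0.0044). rno-miR-18a and rno-miR-19a were detected on 5 and 8 of the 60 arrays.

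**Figure D5:**
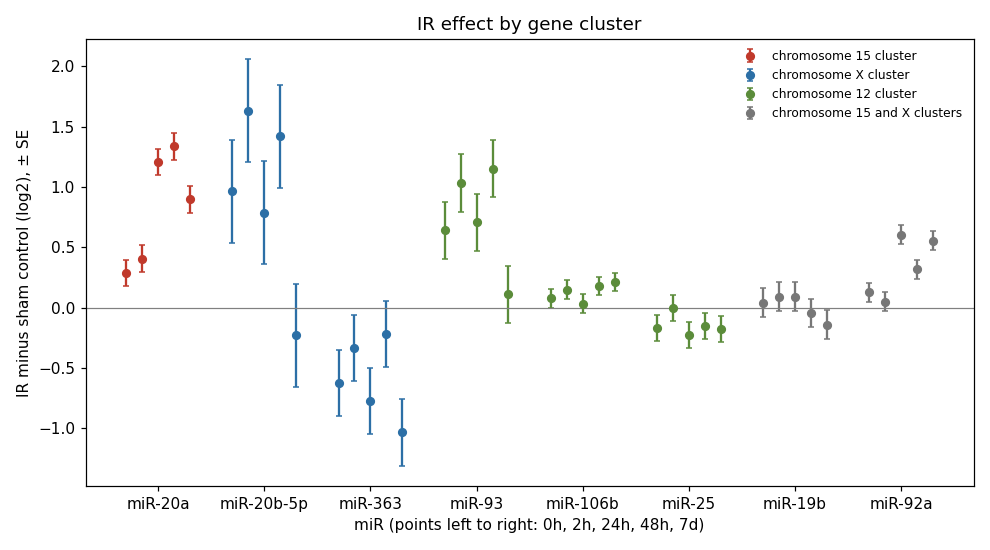
Difference IR minus sham control on the log2 scale (y axis, points with SE from limma, 6 against 6 arrays) for the tested miRs of the 3 gene clusters (x axis), 5 points each in order of time from left to right. In this scaling rno-miR-20a reaches 1.34 while rno-miR-19b stays between -0.14 and 0.09. The points of rno-miR-363 at 24 h and 7d rest on IR arrays that did not detect it. Without scaling the differences of all 4 family members are negative at 24 h and 7d.

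The passenger strands, which are made from the other arm of each hairpin and are usually degraded, were almost absent. Of 4 on the array, rno-miR-20a* was detected on 1 of 60 arrays and rno-miR-17-3p, rno-miR-20b-3p and rno-miR-106b* on none. No passenger strand was tested.

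A shifted form of the seed is known from the embryonic stem cell miRs, in which AAGUGC sits 1 or more bases nearer to the 5′ end. These letters were found in bases 1 to 9 of 10 of the 693 mature miRs, 2 of which outside the family are on the array, and the one tested is printed for comparison with its bases 2 to 8 in capitals.
rno-miR-291a-3p: aAAGUGCUuccacuuugugugcc

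rno-miR-291a-3p was tested only because all 6 IR arrays at 24 h detected it, so its levels are given without a test. At 24 h its IR arrays lay between 6.15 and 7.14 and its sham arrays between 2.65 and 4.62, with 6 and 2 of 6 arrays detected. At 7d the IR arrays lay between 5.49 and 6.59 (3 of 6 detected) and the sham arrays between 2.63 and 3.64 (2 of 6 detected). The groups did not overlap at these times, but most sham arrays did not detect the miR. rno-miR-292-3p was detected on none of the 60 arrays.

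The probes of a member did not always move together. Each member is read by probes of different length, whose values are differences of group means without a test. At 24 h both probes of rno-miR-20a were higher with IR, by 0.81 and 1.29. For rno-miR-106b the brighter probe gave 0.20 and the dimmer one -1.49, and the mean over both probes fell to -0.73 (limma, adjusted p = 1.56e-05). For rno-miR-17-5p the probes gave 0.07 and -0.09. On build rn4 the rno-miR-20a probes cover chr15:99854210-99854227 and chr15:99854209-99854227, and those of rno-miR-106b chr12:17608432-17608448 and chr12:17608432-17608447. No member was saturated on any array.

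Markers of other cells were set beside these results as whole lists. The neural retina list (miR-124, miR-9, miR-183, miR-96 and miR-182) was detected on all 60 arrays, with a summed log2 level of 14.7 to 14.9 in IR and 14.5 to 14.8 in sham at 24 h. Of its 5 members, rno-miR-183 passed as higher at 24 h and rno-miR-9 as lower, where 24.5% and 35.8% of all tested miRs did. Of the 6 blood cell miRs, rno-miR-144, rno-miR-142-3p and rno-miR-142-5p were detected on none of the 60 arrays, rno-miR-451 on 1 and rno-miR-223 on 16, and the summed level was 5.23 to 6.85 in IR and 3.49 to 5.02 in sham at 24 h. That sum holds the scaled background of undetected miRs and does not show more blood cell miR. The almost undetected passenger strands gave 0.84 to 2.27 in IR and -1.04 to 0.13 in sham at 24 h by the same sum. The 1 tested blood cell miR, rno-miR-150, passed as lower at 48 h (-0.73, limma, adjusted p = 0.0013, where 35.2% of all tested miRs did), with 1 IR and 4 sham arrays detected, and at 24 h and 7d no IR array detected it. It was tested only because all 6 sham arrays at 7d detected it. Detection limits of the 48 h IR arrays reached 4.08, above its sham mean of 3.52, so the size of that difference rests on the floor. Their part in the results was not tested.

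Of the 4 muscle miRs, rno-miR-133a was detected on none of the arrays, rno-miR-133b on 7 and rno-miR-1 on 11. Only rno-miR-206, a skeletal muscle miR, was tested. It was higher with IR at all 5 time points (1.34 to 2.33 on the log2 scale, limma, adjusted p = 8.0e-05 to 0.00577). In order of time, 10.7%, 7.55%, 24.5%, 19.5% and 20.1% of all tested miRs passed as higher. Its groups overlapped at 0 h and 48 h, where 3 and 5 of 6 IR arrays lay above the highest sham array. The summed muscle level at 24 h was 7.08 to 8.13 in IR and 5.47 to 6.20 in sham. Of the 3 vessel wall miRs rno-miR-145 was detected on none of the arrays, with summed levels of 5.55 to 6.58 in IR and 6.32 to 6.62 in sham at 24 h. There rno-miR-126 passed as lower (-0.52, limma, adjusted p = 0.00496, where 35.8% of all tested miRs did). It was detected on 1 of 6 IR and 6 of 6 sham arrays at 24 h. rno-miR-143 did not pass at that time (-0.05, limma, adjusted p = 0.66). The pigment epithelium and lens list gave 10.6 to 10.9 and 10.8 to 11.8 at 24 h, where rno-miR-204 passed as lower (-0.27, limma, adjusted p = 0.0264, beside the same 35.8%). At 7d rno-miR-184 was not well above background on any IR array. Taken at the mean detection limit of those arrays (4.86), it was at least 2.17-fold lower than in sham. Single limits reached 6.50, above the sham mean of 5.97, so that bound rests on the mean limit. rno-miR-184 was tested only because all 6 sham arrays at 7d detected it, so its p is not given. By adjusted p alone, 39.6% of all tested miRs passed as lower at 7d. The part of these cells in the results was not tested.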

How the data were processed

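Retinal miRs were measured on 60 Agilent 1-color arrays, per the file headers extracted by the authors with Agilent Feature Extraction 9.5.3.1. The deposited intensity values are background-subtracted fluorescence, not normalized between arrays; the total gene signal and its detection flag were used here. The deposited table of log2 values (219 features) equaled the log2 total signal minus 1 constant per array over 12600 values (tolerance 0.001), and was an alternative. Total signals were scaled to the 75th percentile of the 57 miRs detected on all arrays, floored at 6.20 signal units (each array's lowest detected signal, median over arrays) and put on the log2 scale. One limma 3.58.1 fit (R 4.3.3) held all 10 groups, with Benjamini-Hochberg adjustment over 159 miRs and 50 residual degrees of freedom. Its SE use the variance of each miR as moderated by limma over the tested miRs. Exact permutation tests of 6 against 6 reach 0.00216 at the lowest. Called means at least 2-fold and an adjusted p of at most 0.05, as in the methods, which name no test. In data simulated for IR against sham at 24 h (159 miRs, 40 changed by 1.5 on the log2 scale), 39 changed and 0 unchanged miRs were called. These data had independent normal noise and no floor, slide effect or brightness difference, so they cannot show how those affect the calls. Labels gave each sample's group, and no sample was left out. The members, the lists of cluster partners, passenger strands, related seeds and markers and the rule for named miRs (all members, tested list miRs, and the 3 most alike miRs per member) were chosen with earlier results of these data known. Replicates are separate rats.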

Additional observations from a re-analysis of the deposited data

Results flagged for a closer look

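Within groups of 6 arrays, 5 of 50 member groups had an array set apart from the rest by a large gap, given as a share of the group's range, where chance gives about 1 in 20 groups. For IR at 0 h, replicate 2 was the highest array for rno-miR-20b-5p (6.10, others 3.87 to 4.60, gap share 0.675) and for rno-miR-93 (6.23, others 4.86 to 5.24, gap share 0.723). For sham control at 48 h, replicate 4 was the lowest for rno-miR-20b-5p (2.87, others 4.04 to 4.75, gap share 0.6253) and replicate 1 the highest for rno-miR-106b (7.02, others 6.28 to 6.49, gap share 0.715). For sham control at 0 h, replicate 1 was the lowest for rno-miR-106b (6.27, others 6.48 to 6.53, gap share 0.795).

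The IR effect on rno-miR-20a differed between time points (limma F test, adjusted p = 1.41e-07). It was larger at 24 h, 48 h and 7d than at 0 h by 0.92, 1.05 and 0.61 (limma, adjusted p = 1.74e-05, 8.06e-07 and 0.00449), and larger than at 2 h by 0.80, 0.93 and 0.49 (limma, adjusted p = 0.000149, 9.71e-06 and 0.0109). The change from 2 h to 7d, where 40.9% of tested miRs passed, did not pass under 6 alternatives (0.21 to 0.41). These were the percentile over all miRs, the authors' table, the mean over probes, slide as a fixed or random block, and brightness as a covariate. Without scaling that change was -2.13. From 2 h to 7d the effect changed by -1.86 for rno-miR-20b-5p and -0.92 for rno-miR-93 (limma, adjusted p = 0.0127 and 0.0255). With normexp these changes turned to 1.27 and 1.21. Neither passed with slide as a fixed or random block or with brightness as a covariate.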

How the results depend on the processing

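Of the 726 comparisons of a value with its value under an alternative, 566 kept direction and side of the threshold. For the counts of members called, these 566 include counts that were equal or close. Some alternatives change only the test, so that the direction of a difference could not change. The cause of the others was not tested, except where fewer miRs or arrays entered. All values are log2 differences IR minus sham unless named, in the order of time.

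Without scaling, rno-miR-20a gave -0.78, 0.44, -0.94, 0.14 and -1.68. rno-miR-106b gave -0.98 at 0 h and -2.12, -1.01 and -2.37 from 24 h on, and rno-miR-93 -0.42, 1.07, -1.45, -0.0408 and -2.41. rno-miR-20b-5p gave -1.29, 0.23 and -2.19 from 24 h on. The changes of the rno-miR-20a effect from 0 h to 24 h, 48 h and 7d were -0.17, 0.92 and -0.91, and from 2 h -1.39, -0.30 and -2.13. The adjusted p of the F test of the IR effect was 1.44e-05 for rno-miR-20b-5p, 2.37e-06 for rno-miR-93 and 1.01e-05 for rno-miR-106b, and over the sham groups 0.0203 for rno-miR-20b-5p. The members called numbered 1, 3, 1 and 4 from 2 h on, against 5, 139, 121 and 151 of all 159 tested miRs.

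Normexp gave rno-miR-20a 0.62 and 0.24 at 0 h and 2 h, and rno-miR-106b 0.60 and 0.71 at 0 h and 24 h. It gave rno-miR-93 1.04, 0.25 and 1.46 at 0 h, 2 h and 7d, and rno-miR-20b-5p 1.19, 0.31, 1.19 and 1.58 at 0 h, 2 h, 24 h and 7d. The changes for rno-miR-20a were 0.39, 0.50 and 0.54 from 0 h and 0.77 and 0.88 from 2 h to 24 h and 48 h, with an F test adjusted p of 0.189. From 2 h to 7d they were 1.27 for rno-miR-20b-5p and 1.21 for rno-miR-93. The members called numbered 2, 0, 3 and 4 at 0 h, 2 h, 24 h and 7d, against 44, 2, 61 and 95 of all 159.

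With the percentile taken over all miRs, rno-miR-20a gave -0.035 and 0.37 at 0 h and 2 h, rno-miR-93 0.39 and -0.091 at 24 h and 7d, and rno-miR-106b -0.24, -0.28, 0.0262 and 0.012 at 0 h, 24 h, 48 h and 7d. Quantile normalization gave -0.075 and 0.0691, 0.37 and -0.0754, and -0.14, -0.23, 0.0037 and 0.0275 for the same values, and the authors' table -0.0241 and 0.39, 0.35 and -0.14, and -0.23, -0.32, 0.0452 and -0.0378. The F test adjusted p for rno-miR-20b-5p and rno-miR-93 was 0.0146 and 0.0053, 0.0085 and 0.00312, and 0.0212 and 0.00269 in turn, and for rno-miR-106b 0.0096 with the percentile and 0.0039 with the table. The rno-miR-20a change from 2 h to 7d was 0.33 with the percentile and 0.26 with the table. At 2 h 1 member was called with the percentile and with quantile normalization, and at 24 h 0 with all of these.

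The mean over probes gave rno-miR-106b -0.38, -0.73, -0.41 and -0.18 at 0 h, 24 h, 48 h and 7d (F test adjusted p = 0.0149), rno-miR-93 0.56 and -0.0028 at 24 h and 7d, rno-miR-20a changes of 0.53 from 0 h to 7d and 0.42 and 0.21 from 2 h to 24 h and 7d, and 0 members called at 24 h. With the highest detection limit as floor, rno-miR-20b-5p and rno-miR-93 were at the floor on all arrays compared except at 48 h (0.0602 and 0.0844), rno-miR-106b gave -0.0083, 0.0891 and 0.0851 from 24 h on, and 0 and 1 members were called at 2 h and 48 h, as when only miRs detected on all arrays were tested.

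With slide as a fixed block, rno-miR-20a gave 0.50 and rno-miR-20b-5p 1.37 at 2 h, rno-miR-20b-5p 0.21 at 7d, rno-miR-93 0.90 at 24 h and rno-miR-106b -0.052, 0.0707 and 0.0751 from 24 h on, with 1 member called at 2 h. Changes to 7d were 0.34 from 0 h and 0.23 from 2 h for rno-miR-20a, -1.16 for rno-miR-20b-5p and -0.77 for rno-miR-93. With slide as a random block rno-miR-20a gave 0.35 at 0 h and rno-miR-106b 0.16 and 0.18 at 48 h and 7d, the changes from 2 h to 7d were 0.39, -1.55 and -0.86, and the F test adjusted p for rno-miR-93 was 0.0477. Brightness as a covariate gave 0.44 for rno-miR-20b-5p at 7d, 0.18 and 0.20 for rno-miR-106b at 48 h and 7d, and changes of 0.41, -1.18 and -0.70. With scan as a block rno-miR-93 passed at 0 h (0.64), with F test adjusted p of 0.0363 for rno-miR-20b-5p and 0.0394 for rno-miR-93.

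The replicate numbers were not taken as pairs, since the labels give them no meaning. The correlations were no reason against pairing. r was over 0.1 in 19 of 30 same-numbered pairs (-0.31 to 0.62, median 0.23), 10 of 30 correlated best with their own number and all 30 pairs shared a scan day. With the replicate block rno-miR-106b at 48 h no longer passed (0.18, limma, adjusted p = 0.0539), gave F test adjusted p of 0.0356 for rno-miR-20b-5p and 0.0454 for rno-miR-93, and changed no other call. rno-miR-106b at 48 h (0.18) also failed to pass with only the 12 arrays, the floor of 0.01, no filter, a trend and robust prior, or the exact permutation test. With only the 12 arrays, and by the exact test, rno-miR-20a at 0 h (0.29) and rno-miR-20b-5p at 24 h (0.79) passed. By the exact test rno-miR-20a (0.41), rno-miR-20b-5p (1.63) and rno-miR-93 (1.03) did not pass at 2 h, so that 0 members were called there, and the floor of 0.01 lost rno-miR-20b-5p at 48 h (1.42). By adjusted p alone 2 members passed at 24 h and 2 at 7d.

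Leaving out 1 array in turn gave rno-miR-106b 0.14 to 0.28 at 48 h, where the adjusted p did not pass in 9 of 12 cases (all but IR replicates 1 and 5 and sham replicate 1), and -0.0014 (without sham replicate 2) to 0.0613 at 24 h. It gave rno-miR-20b-5p -0.49 to 0.0137 (without IR replicate 4) at 7d and rno-miR-93 0.45 to 0.76 at 0 h, which passed without IR replicate 4 or sham replicate 6. At 2 h 1 to 2 members were called (1 without IR replicate 1, 3 or 6 or sham replicate 2, 3 or 4) and at 48 h 2 to 3. rno-miR-20a stayed past the adjusted p of 0.05 from 2 h on. Detection limits of single arrays reached 6.50 on the log2 scale.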
